A study of Mus musculus with 8 samples.

Results

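The genes described here encode the pore-forming and auxiliary subunits of voltage-gated calcium channels, voltage-gated sodium channels and hyperpolarization-activated cation (HCN) channels. They were taken by name: every probe set of the array annotated with a single gene symbol that starts with Cacna, Cacnb or Cacng, or that is Scn or Hcn followed by a digit. This gave 87 probe sets of 37 genes, out of 45037 probe sets in all and 18193 genes with a single symbol. A probe set is a group of short probes on an Affymetrix array that together read the RNA of a gene or of some of its transcripts, and its value is a log2 expression value from RMA, the authors' normalization. The RNA came from punches of the central striatum, cut from coronal brain slices of newborn BALB/c mice at postnatal day 0. There were 3 wild type mice, 1 Ctip2 heterozygote and 4 Ctip2 null mutants, with 1 mouse to an array. Ctip2, now named Bcl11b, is a transcription factor with zinc fingers, found in the striatum in its projection neurons (medium spiny neurons), and the comparison asks which genes differ when it is absent. The sources used here do not give the part of the gene that the null allele lacks.

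Voltage-gated sodium channels open as a neuron depolarizes and carry the rising phase of the action potential, and their beta subunits tune gating and membrane placement. Calcium channels turn the same depolarization into calcium entry for transmitter release, firing patterns and gene regulation. Their alpha1 subunit forms the pore, the alpha2delta and beta subunits bring it to the membrane, and most gamma subunits are better known as TARPs, the partners that traffic AMPA-type glutamate receptors. HCN channels open on hyperpolarization and help to set the resting potential and rhythm. In newborn forebrain the sodium channel set is still immature: Scn2a, Scn3a and Scn3b are known as early forms, whereas Scn1a, Scn8a and Scn4b are known to gain in expression as neurons mature, Scn4b above all in striatal projection neurons.

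The arrays were not equally wide in their log2 values. The SD over all probe sets lay between 1.84 and 1.97 in wild type, was 2.06 in the heterozygote and lay between 1.90 and 2.05 in null arrays. Bcl11b on its brightest probe set read 12 to 12.45 in wild type, 12.43 in the heterozygote and 11.03 to 11.47 in null arrays. Medium spiny neuron markers were split: of 14 measured, 7 had differences above 0 and 7 below, and 13 lay above the median of all probe sets. Limma called 3 lower in null striatum (Ppp1r1b, Drd1 and Pde10a), beside 0.676% of all genes, and 0 higher. Null arrays lay wholly above wild type arrays on Foxp2, Meis2 and Ebf1, which did not pass. Of 12 general neuronal genes, 12 had higher means in null striatum, beside 39.4% of all genes. All 12 lay above the median of all probe sets, and 51.1% of probe sets above that median had higher null means. The test passed 3 (Dcx, Syn1 and Elavl3), beside 2.38% of all genes and 3.23% of probe sets above the median called higher. The list's mean level was 10.86 to 11.12 in wild type, 11.45 in the heterozygote and 11.32 to 11.78 in null arrays. Microglial markers averaged 6.80 to 6.88 in wild type, 6.85 in the heterozygote and 6.93 to 7.30 in null arrays, with 6 of 8 differences above 0 and 0 called. Of 8 cortical projection neuron markers 1 and of 7 skeletal muscle markers 1 had a difference above 0, again with 0 called on either list. On each of these 2 lists only 2 genes lay above the median of all probe sets. At or below that median, 25% of all probe sets had a difference above 0. Striatal interneuron markers had 4 differences above 0 and 6 below, and 1 of the 10 was called higher, Lhx6 (2.09-fold, limma adjusted p = 0.0487). Progenitor markers had 2 above 0 and 5 below, and 1 of the 7 was called higher, Sox2 (1.61-fold, limma adjusted p = 0.0459). Ttr, the choroid plexus transcript, varied within groups, from 9.38 to 13.34 in wild type and 7.11 to 13.44 in null arrays. The part of these differences in the channel results was not tested. In bulk tissue fewer cells of a type and less RNA per cell cannot be told apart.

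A minority of the channel genes rose in null striatum. By limma, with p-values adjusted by Benjamini-Hochberg across the whole array, 6 of the 87 channel probe sets were higher in null arrays at an adjusted p under 0.05, which is 6.90% against 1.87% of all probe sets. They belong to 5 genes: Scn3b, Cacna2d2, Cacna1b with 2 probe sets, Cacng2 and Scn2a. The rises were between 1.63-fold and 1.98-fold. Counting only the brightest probe set of each gene in this fit, 2 of 37 were higher (5.41%, against 2.38% of all genes). No channel probe set was called lower (0 of 87, against 0.453% of all), with 8 lower at an unadjusted p under 0.05, beside 8.74% of all. By a SAM score beyond 2, the cut named in the series' design text, 9 were lower, beside 12.7% of all. Null arrays lay wholly above wild type arrays on 16 of the 87 (18.4%, against 7.7% of all probe sets) and wholly below on 7 (8.05%, against 8.85%). Of the channel probe sets, 42 had differences above 0 and 45 below (48.3% above 0, against 38.0% of all probe sets), with a median of -0.01, beside a median of -0.08 over all probe sets. Of 26 genes with more than 1 probe set, 14 had differences of both signs, so that genes below are described by probe set. Why probe sets of a gene differed was not tested. The limma 95% interval lay within 1 log2 unit on either side of 0 for 77 of the 87.

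**Figure D1:**
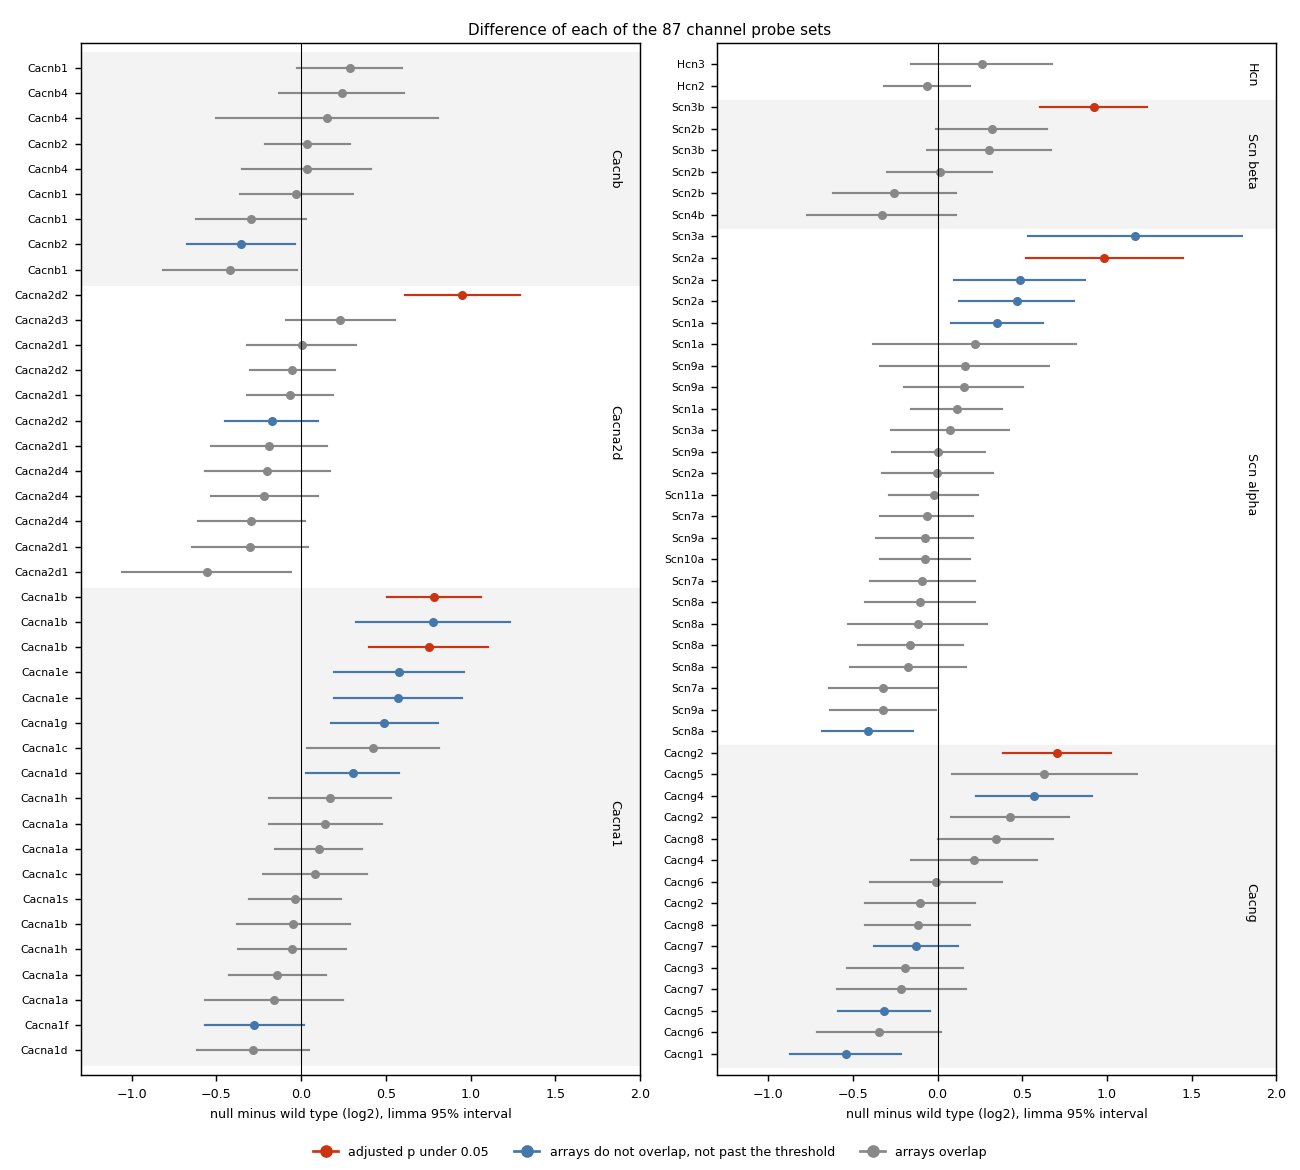
Null minus wild type difference in log2 units (points) with its limma 95% interval (lines) for each of the 87 channel probe sets, 1 line each, grouped by family. The 6 red points, past an adjusted p of 0.05, are all to the right of 0, and blue points mark other probe sets without overlap between the 3 wild type and 4 null arrays.

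Among the pore-forming calcium channel subunits, Cacna1b, the N-type channel of presynaptic terminals, rose in null striatum. Of 19 probe sets of 9 Cacna1 genes, 2 were higher, 0 were lower and 17 did not pass, with a median difference of 0.14. Both called probe sets are annotated to Cacna1b, with no sequence record given for either, unlike the other probe sets of the gene. On the first (1460608_at) wild type arrays read 7.50, 7.31 and 7.25, the heterozygote 8.30 and null arrays 8.22, 8.26, 8.06 and 8.02. All 4 null mice were above all 3 wild type mice, and the heterozygote was higher than either group. The mean went from 7.36 ± 0.13 (SD, n = 3) to 8.14 ± 0.12 (SD, n = 4), a 1.72-fold rise (log2 difference 0.78, SE 0.12, limma adjusted p = 0.0143). On the second (1436602_x_at) wild type arrays read 7.44, 7.41 and 7.24, the heterozygote 8.23 and null arrays 8.20, 8.33, 8.19 and 7.74. This was a 1.68-fold rise (log2 difference 0.75, SE 0.16, limma adjusted p = 0.0413). The suffix of its name marks probes that can also match other sequences. Another probe set, 1439612_at, with wild type values of 7.43, 7.59 and 7.48 and null values of 8.07, 8.51, 8.71 and 7.82, showed the same separation with more spread among null mice and did not pass (1.71-fold higher, limma adjusted p = 0.0864). It had an adjusted p of 0.0239 without null 4. The last, 1425812_a_at, read 7.05, 7.57 and 7.09 in wild type and 7.16, 7.30, 7.08 and 7.23 in null arrays, a difference of -0.05 (95% interval -0.38 to 0.29). Null arrays thus lay above wild type arrays on 3 of the 4 probe sets of Cacna1b, and 2 passed the test. With single arrays left out, 1460608_at had adjusted p values of 0.0614 without wild type 2, 0.0730 without wild type 3, 0.0575 without null 1 and 0.0581 without null 2. 1436602_x_at had 0.124 and 0.160 without wild type 2 or 3 and 0.114, 0.130 and 0.0885 without null 1, 2 or 3.

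The other pore-forming calcium channel genes did not pass. Cacna1e, the R-type channel, had null arrays above wild type arrays on both of its probe sets. The brighter read 8.09, 7.76 and 8.45 in wild type, 8.38 in the heterozygote and 8.58, 8.79, 8.79 and 8.53 in null arrays (1.49-fold higher, limma adjusted p = 0.122). Its other probe set went from 6.78 ± 0.24 (SD, n = 3) to 7.36 ± 0.25 (SD, n = 4), and the pair thus differed by the same amount, 0.57 and 0.58. Cacna1g, a low-threshold T-type channel, went from 7.01 ± 0.19 (SD, n = 3) to 7.50 ± 0.16 (SD, n = 4), with no overlap (limma adjusted p = 0.110). The L-type channels, which couple calcium entry to gene regulation, were less clear. Cacna1d had a probe set without overlap, at 7.26 ± 0.09 (SD, n = 3) against 7.56 ± 0.13 (SD, n = 4) (limma adjusted p = 0.224), and another that differed by -0.29. Cacna1c differed by 0.42 on its dimmer probe set (limma adjusted p = 0.227, and 0.0423 without wild type 1) and by 0.08 on the other. Cacna1a, the P/Q-type channel of most fast synapses, had 4 probe sets with differences from -0.16 to 0.14. Cacna1h, also T-type, differed by 0.17 and -0.05. Cacna1s, the skeletal muscle channel, differed by -0.04, and Cacna1f, the retinal channel, had null arrays wholly below wild type ones, at 6.46 ± 0.07 (SD, n = 4) against 6.73 ± 0.20 (SD, n = 3) (limma adjusted p = 0.273).

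Of the alpha2delta subunits, Cacna2d2 rose on 1 of its 3 probe sets. Over the family 1 of 12 probe sets was higher, 0 were lower and 11 did not pass, with 9 differences below 0 and a median of -0.18. The called probe set (1450754_at) read 6.50, 6.85 and 6.46 in wild type, 7.42 in the heterozygote and 7.72, 7.69, 7.51 and 7.32 in null arrays. The heterozygote stood among the null mice, and no wild type array reached the lowest null array. The mean went from 6.61 ± 0.22 (SD, n = 3) to 7.56 ± 0.19 (SD, n = 4), a 1.93-fold rise (log2 difference 0.95, SE 0.15, limma adjusted p = 0.0141). The other probe sets of the gene, annotated with another transcript record, read low and differed little: 1451955_a_at went from 5.38 to 5.32 and 1426185_at from 4.58 to 4.40, the latter with null arrays wholly below wild type. The rise was not called without wild type 3 (adjusted p = 0.0741), null 1 (0.0531) or null 2 (0.0556). Cacna2d3, the family member with the brightest probe set, read 10.51, 10.36 and 10.45 in wild type, 11.18 in the heterozygote and 10.74, 10.69, 10.90 and 10.36 in null arrays. Its groups overlapped (difference 0.23, 95% interval -0.09 to 0.56). Cacna2d1, a binding site of gabapentin, had 5 probe sets with differences from -0.56 to 0.00, and the 3 of Cacna2d4 ranged from -0.29 to -0.20. None of these passed.

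**Figure D2:**
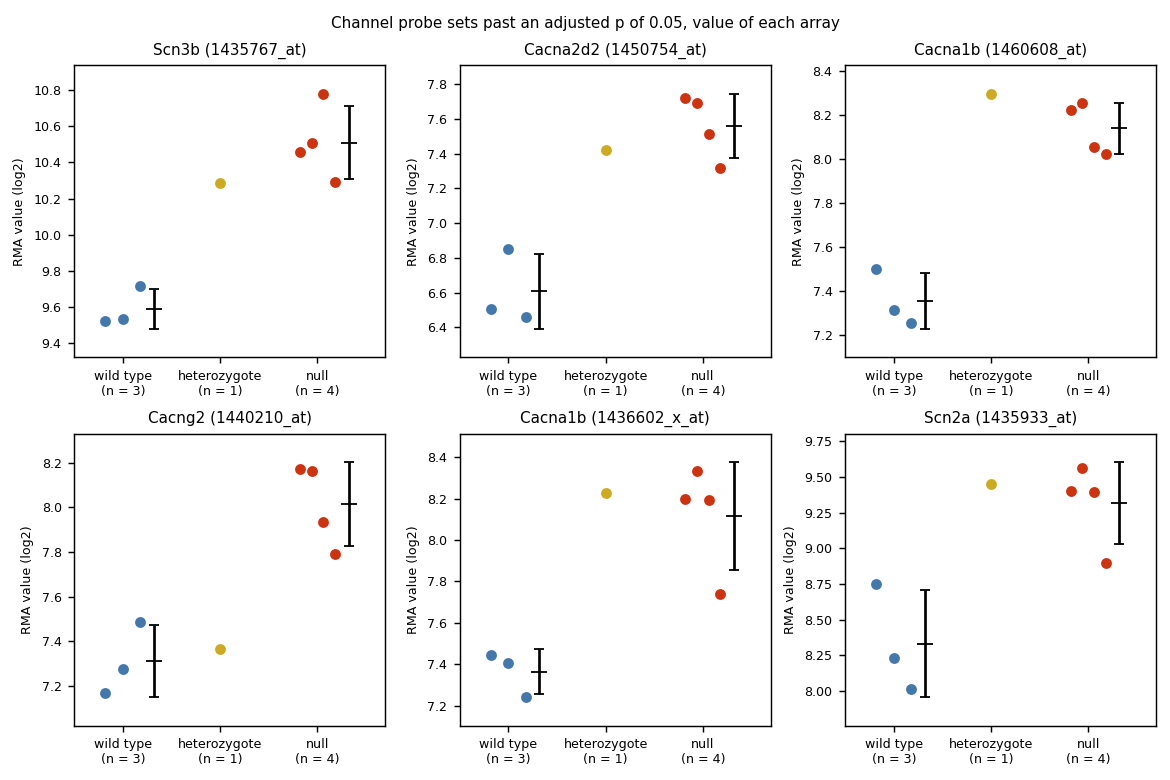
RMA values in log2 units (vertical axes, each with its own range, not starting at 0) of the 6 called channel probe sets, 1 point per array, for wild type, heterozygote and null mice. Black bars are the mean ± SD of the wild type and null groups. In every panel the 4 null points lie above the 3 wild type points, and the heterozygote lies above the wild type points in 5 of the 6, Cacng2 being the other.

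The beta subunits, cytoplasmic partners that help the pore subunit to the membrane, showed no called change. Of 9 probe sets of Cacnb1, Cacnb2 and Cacnb4, limma called 0. An unadjusted p under 0.05 was seen on 2, both lower, beside 8.74% of all probe sets lower at that cut. Cacnb1 on its brightest probe set read 8.0, 7.91 and 7.84 in wild type, 8.48 in the heterozygote and 7.97, 8.27, 8.44 and 8.13 in null arrays. This was higher by 0.29 with overlap (limma adjusted p = 0.279), while 1426108_s_at of the same gene was lower by -0.42. Cacnb2 (1456401_at) read 6.17, 6.23 and 6.15 in wild type, 6.09 in the heterozygote and 5.61, 5.70, 5.88 and 6.12 in null arrays. Null arrays all read lower, by a narrow margin in null 4 (difference -0.35, limma adjusted p = 0.222). The 3 probe sets of Cacnb4 differed by 0.03, 0.15 and 0.24.

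Among gamma subunits, Cacng2, the TARP stargazin, rose on 1 of its 3 probe sets. Over the family 1 of 15 probe sets of 8 genes was higher, 0 were lower and 14 did not pass, with 9 differences below 0. The called probe set (1440210_at) read 7.17, 7.27 and 7.49 in wild type, 7.37 in the heterozygote and 8.17, 8.16, 7.93 and 7.79 in null arrays. The heterozygote stood within the wild type mice here, unlike on the other called channel probe sets. The mean went from 7.31 ± 0.16 (SD, n = 3) to 8.02 ± 0.19 (SD, n = 4), a 1.63-fold rise (log2 difference 0.71, SE 0.14, limma adjusted p = 0.0367). The second probe set, 1420596_at, read 7.78, 8.07 and 8.03 in wild type and 8.38, 8.48, 8.62 and 8.06 in null arrays, higher by 0.43 with a slight overlap (limma adjusted p = 0.189). The third, 1453363_at, read 8.42, 8.64 and 8.54 against 8.59, 8.32, 8.17 and 8.63, a difference of -0.10 (95% interval -0.43 to 0.22). The call on 1440210_at was lost without each single array other than null 4: adjusted p values were 0.0582, 0.133 and 0.0770 without wild type 1, 2 or 3, and 0.110, 0.125 and 0.0621 without null 1, 2 or 3.

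Cacng4, another TARP of early brain, had the brightest probe set of the family, at 10.50, 10.32 and 10.42 in wild type, 11.12 in the heterozygote and 10.92, 11.19, 11.17 and 10.65 in null arrays. All null arrays read higher, with a log2 difference of 0.57 that did not pass (limma adjusted p = 0.0935, and 0.0271 without null 4). Its other probe set differed by 0.22. Cacng5 split: 1434785_at read 5.64, 6.31 and 6.02 in wild type, 7.77 in the heterozygote and 6.28, 6.58, 7.26 and 6.36 in null arrays, with overlap (difference 0.63, limma adjusted p = 0.211), while 1426330_at was lower by -0.31 with no overlap (limma adjusted p = 0.209). The heterozygote was the highest array on the former. Cacng1, a subunit of the skeletal muscle calcium channel, had the most negative difference of the family, from 7.78 ± 0.20 (SD, n = 3) to 7.24 ± 0.17 (SD, n = 4), with no overlap (difference -0.54, limma adjusted p = 0.0919, and 0.0406 without null 4). The TARP gene Cacng7 had a probe set at 7.14 ± 0.03 (SD, n = 3) against 7.01 ± 0.08 (SD, n = 4), a difference of only -0.13 without overlap. Cacng1, Cacng4 and Cacng5 lie next to each other on one chromosome in the reference gene table, as do Cacng7, Cacng8 and Cacng6 on another. On the brightest probe set of each gene, the former trio had differences of both signs (-0.54, 0.57 and 0.63). The latter had differences of -0.21, -0.12 and -0.01. Of these 6 probe sets, 0 passed limma at an adjusted p of 0.05. The former 3 had an unadjusted p under 0.05, as did 4041 of all 18193 genes.

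Scn2a, which encodes the sodium channel of immature axons, rose on 1 of its 4 probe sets, and on 2 more the null arrays lay above wild type arrays without passing the test. Over the 24 probe sets of 8 sodium channel alpha genes, 1 was higher, 0 were lower and 23 did not pass, with a median difference of -0.01. The called probe set (1435933_at) read 8.75, 8.23 and 8.02 in wild type, 9.45 in the heterozygote and 9.40, 9.56, 9.40 and 8.90 in null arrays. The groups were separate, with wild type 1 and null 4 nearest to each other. The mean went from 8.33 ± 0.38 (SD, n = 3) to 9.32 ± 0.29 (SD, n = 4), a 1.98-fold rise (log2 difference 0.98, SE 0.21, limma adjusted p = 0.0422). The brightest probe set, 1427280_at, read 9.21, 8.49 and 9.06 in wild type, 9.33 in the heterozygote and 9.47, 9.29, 9.49 and 9.37 in null arrays, again without overlap but not called (1.40-fold higher, limma adjusted p = 0.181). 1427281_at also had no overlap, at 5.06 ± 0.14 (SD, n = 3) against 5.53 ± 0.23 (SD, n = 4). The fourth, 1445259_at, read 5.73, 6.05 and 6.27 in wild type and 6.03, 5.96, 5.93 and 6.14 in null arrays, a difference of 0.00 (95% interval -0.33 to 0.32). Without wild type 2 or 3 the adjusted p of 1435933_at was 0.160 and 0.167, and without null 1, 2 or 3 it was 0.109, 0.130 and 0.0901.

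Scn3a, the embryonic sodium channel, had the largest difference of all 87 channel probe sets and yet did not pass. On 1439204_at wild type arrays read 8.03, 6.57 and 7.29, the heterozygote 8.43 and null arrays 8.43, 8.50, 8.66 and 8.25. The wild type mice were spread over more than a log2 unit and the null mice were tight, all above them. The mean went from 7.29 ± 0.73 (SD, n = 3) to 8.46 ± 0.17 (SD, n = 4), 2.24-fold higher (log2 difference 1.17, SE 0.28, limma adjusted p = 0.0677). Without wild type 1 the difference was 1.53 with an adjusted p of 0.0099. Its other probe set, 1421705_at, read below the median of all probe sets in every array and differed by 0.07. Scn1a, a channel that comes up later in interneurons and other cells, had a probe set at 6.71 ± 0.17 (SD, n = 3) against 7.06 ± 0.03 (SD, n = 4) with no overlap (limma adjusted p = 0.169). Scn8a, the main channel of mature axon initial segments, had 5 probe sets that all differed downward, from -0.41 to -0.11. The lowest of them, 1442208_at, went from 6.10 ± 0.13 (SD, n = 3) to 5.69 ± 0.09 (SD, n = 4) with no overlap (limma adjusted p = 0.119). Scn9a, Scn7a, Scn10a and Scn11a, known from sensory neurons and glia, had probe sets below the median of all in wild type mean, with differences from -0.32 to 0.16.

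Scn3a and Scn2a are next to each other in the reference gene table, followed with 3 protein-coding genes between by Scn1a, Scn9a and Scn7a, which are again adjacent. On the brightest probe set of each, in that order, the log2 differences were 1.17, 0.49, 0.35, -0.08 and -0.32. The first 3 genes had null arrays wholly above wild type arrays and the last 2 did not, and 0 of these 5 probe sets passed limma at an adjusted p of 0.05 (3 had an unadjusted p under 0.05 and a higher null mean).

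**Figure D3:**
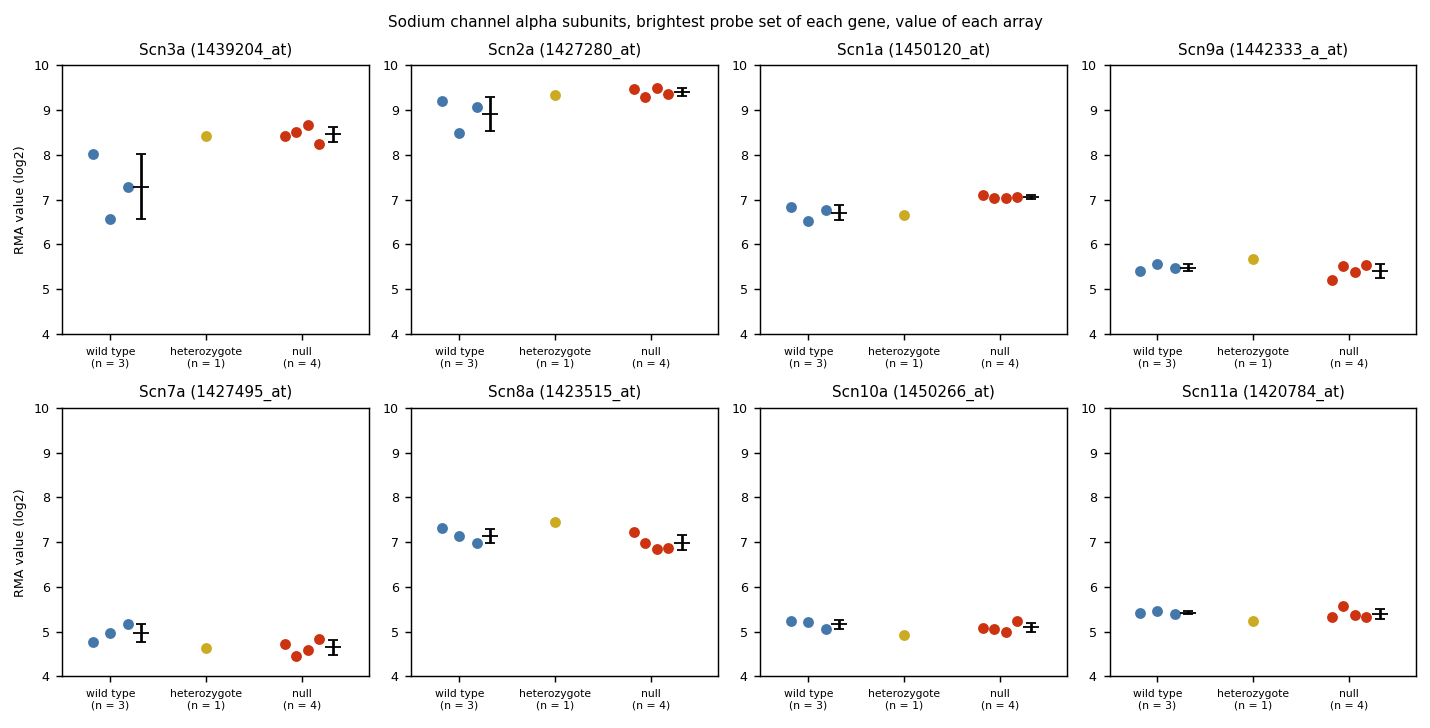
RMA values in log2 units (one shared vertical range that does not start at 0) of the brightest probe set of each of the 8 sodium channel alpha genes, 1 point per array, with the mean ± SD of the wild type and null groups. Null points lie above wild type points for Scn3a, Scn2a and Scn1a, and levels of different probe sets are not comparable.

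Scn3b, the beta3 subunit of early neurons, was the channel gene of smallest adjusted p. Its brighter probe set (1435767_at) read 9.52, 9.53 and 9.72 in wild type, 10.28 in the heterozygote and 10.46, 10.51, 10.78 and 10.29 in null arrays. All null mice were at least as high as the heterozygote, which in turn was above every wild type mouse. The mean went from 9.59 ± 0.11 (SD, n = 3) to 10.51 ± 0.20 (SD, n = 4), a 1.89-fold rise (log2 difference 0.92, SE 0.14, limma adjusted p = 0.0124). The call was lost without wild type 2, with an adjusted p of 0.0560, and held without any other single array. Its other probe set, 1426328_a_at, was higher by 0.30 with overlap (limma adjusted p = 0.318). Of the other beta subunit genes, Scn2b had 3 probe sets that differed by -0.25, 0.01 and 0.32. Scn4b, the subunit that marks mature striatal projection neurons, read 5.29, 6.06 and 5.20 in wild type, 5.24 in the heterozygote and 5.13, 5.15, 5.17 and 5.30 in null arrays. Wild type 2 stood apart on it, and the other wild type values overlapped with null ones (difference -0.33, limma adjusted p = 0.353). In all, 1 of 6 probe sets of this family was higher, 0 were lower and 5 did not pass.

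Neither HCN channel gene passed, with 0 at an unadjusted p under 0.05. Hcn3 read 8.99, 9.21 and 9.09 in wild type, 9.45 in the heterozygote and 9.20, 9.50, 9.77 and 8.96 in null arrays. Null 4 was the lowest of all arrays and null 3 the highest, so that the groups overlapped (difference 0.26, 95% interval -0.16 to 0.68, limma adjusted p = 0.422). Hcn2 differed by -0.06, between 7.31 and 7.52 in every wild type and null array.

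Promoters are shown for the genes with a call, so that their start regions can be read beside their values. RefSeq's table (GRCm38.p6) held a promoter for 28 of the 37 genes, 38 in all, and for 4 of the 5 genes with a call. The 250 bases before the annotated start are printed 5′ to 3′ on the gene's strand, in lower case with each CG dinucleotide in capitals. The Cacna1b promoter lies at chr2:24763153-24763402 on the minus strand and holds 29 CG dinucleotides, more than 93.2% of 32851 promoters in that table.
Cacna1b: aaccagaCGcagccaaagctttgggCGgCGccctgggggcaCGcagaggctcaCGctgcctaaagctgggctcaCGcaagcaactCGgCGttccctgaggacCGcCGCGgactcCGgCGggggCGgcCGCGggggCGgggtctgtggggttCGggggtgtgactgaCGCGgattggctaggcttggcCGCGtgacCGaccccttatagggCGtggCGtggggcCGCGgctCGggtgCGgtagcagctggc
The Cacna2d2 promoter, at chr9:107399630-107399879 on the plus strand, holds 34, more than 96.5% of all.
Cacna2d2: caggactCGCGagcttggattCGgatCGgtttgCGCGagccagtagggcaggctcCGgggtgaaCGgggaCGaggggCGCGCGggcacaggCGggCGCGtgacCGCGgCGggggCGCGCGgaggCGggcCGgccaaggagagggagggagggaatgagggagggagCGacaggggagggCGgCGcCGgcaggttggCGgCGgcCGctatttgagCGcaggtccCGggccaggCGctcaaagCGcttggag
The Cacng2 promoter, at chr15:78119281-78119530 on the minus strand, holds 16.
Cacng2: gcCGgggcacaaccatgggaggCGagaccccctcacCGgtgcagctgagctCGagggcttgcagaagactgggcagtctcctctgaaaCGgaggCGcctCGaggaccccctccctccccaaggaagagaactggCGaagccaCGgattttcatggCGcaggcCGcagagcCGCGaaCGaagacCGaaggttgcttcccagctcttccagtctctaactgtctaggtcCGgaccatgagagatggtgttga
Scn2a has a pair of annotated starts. The upstream one, at chr2:65620519-65620768 on the plus strand, holds 2, with 18.8% of all promoters holding fewer.
Scn2a upstream start: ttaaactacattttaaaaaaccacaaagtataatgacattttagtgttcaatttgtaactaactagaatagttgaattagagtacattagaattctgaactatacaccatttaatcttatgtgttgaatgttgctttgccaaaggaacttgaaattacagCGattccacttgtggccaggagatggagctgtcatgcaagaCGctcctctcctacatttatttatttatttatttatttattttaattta
The downstream one, at chr2:65668436-65668685 on the plus strand, holds 9.
Scn2a downstream start: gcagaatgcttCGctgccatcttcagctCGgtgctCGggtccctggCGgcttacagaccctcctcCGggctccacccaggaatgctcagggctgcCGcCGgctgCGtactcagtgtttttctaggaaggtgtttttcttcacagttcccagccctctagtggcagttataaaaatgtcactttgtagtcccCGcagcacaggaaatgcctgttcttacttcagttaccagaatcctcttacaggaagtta

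The 4 genes thus have CG-rich and CG-poor starts, against a median of 6 CG dinucleotides over all promoters and 8.5 over the 38 channel promoters. The letters GGGCGG (the GC box), searched on both strands, are in the Cacna1b and Cacna2d2 windows and in 15 of 38 channel promoters, beside 32.7% of all promoters. The letters TATAAA, on either strand, are in the downstream Scn2a window, in 2 of 38 channel promoters and in 12.4% of all. The letters TGACCA, a motif known for binding of the related protein Bcl11a, are in 0 of the 5 printed windows, in 3 of 38 channel promoters and in 11.4% of all promoters. A match here is a match of letters and no more.

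Which way a channel probe set differed went with how bright it was. Of 49 channel probe sets with a mean above the median of all probe sets, 32 were higher in null striatum (65.3%), whereas of 38 at or below that median 10 were (26.3%). Over all probe sets the same shares were 51.1% and 25%. All 6 called channel probe sets were among the brighter 49 (12.2%, against 3.23% of brighter probe sets at large), as were 15 of the 16 whose null arrays lay wholly above wild type ones. The spread of the arrays moved with this: SDs were higher in all 4 null arrays than in wild type 2 and 3, wild type 1 lay above null 1 and null 4, and null 4, with the lowest SD of the null arrays, had the lowest null value on all 6 called probe sets. With the SD of each array as a covariate, limma called 0 of the 87, beside 0.42% of all probe sets called higher. In that fit 17 of the 87 had an unadjusted p under 0.05, with no share over all probe sets worked out. Without the covariate these were 28 of the 87, beside 8836 of all 45037 probe sets. The differences of the 6 then lay between 0.54 and 0.94, with adjusted p values from 0.0733 to 0.216. The part of the spread in the rises cannot be told apart from genotype in these 7 arrays.

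**Figure D4:**
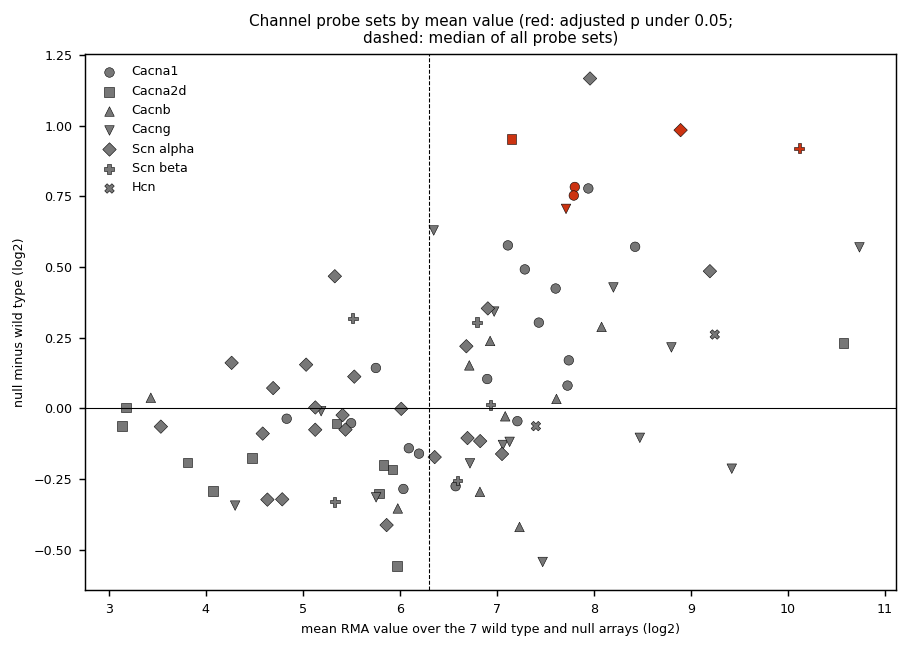
Null minus wild type difference (vertical axis, log2 units) against the mean RMA value over the 7 wild type and null arrays (horizontal axis, log2 units) for the 87 channel probe sets, with a symbol for each family. The 6 red, called points lie to the right of the dashed median of all probe sets, where 32 of 49 points are above 0, against 10 of 38 to its left.

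The single heterozygote read high on most of the channel genes that rose, and its Bcl11b value lay within the wild type range. On 5 of the 6 called probe sets it lay above every wild type array, and on 3 of the 6 it fell inside the null range. Of the 16 channel probe sets with null arrays wholly above wild type, the heterozygote was above all wild type arrays on 13. Among all probe sets with null wholly above wild type, the heterozygote was above all wild type arrays on 84.7%. It was also the array with the widest spread. With 1 mouse there is no test of the heterozygote. With it counted among the controls limma called 0 of the 87 channel probe sets, beside 0.244% of all probe sets called higher. Adjusted p values of the 6 then lay between 0.0589, for Cacng2, and 0.460. An unadjusted p under 0.05 was reached by 17 of the 87, with no share over all probe sets worked out for this fit.

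Among genes for channel partners and for related sodium and calcium handling, 5 were called higher. Both lists were chosen with earlier results of these data known, so their counts are not an independent test. With 1 probe set per gene, 2.38% of all genes were called higher and 0.676% lower. Of 15 measured partners of sodium and HCN channels 3 rose, 0 fell and 12 did not pass. Their median difference was 0.34, beside -0.08 over all genes. Of the 15, 13 lay above the median level of all probe sets, and all probe sets above it had a median difference of 0.01. Fgf14, an intracellular regulator that binds sodium channel tails, read 6.03, 6.17 and 6.41 in wild type, 7.53 in the heterozygote and 7.51, 7.42, 7.28 and 7.23 in null arrays, a 2.23-fold rise (SE 0.14 on the log2 scale, limma adjusted p = 0.0040). Ank2, an ankyrin that anchors membrane proteins along axons, rose 2.12-fold, with a wild type mean of 8.50 ± 0.48 (SD, n = 3) and a null mean of 9.59 ± 0.20 (SD, n = 4) (limma adjusted p = 0.0332). Nalcn, itself a channel (the sodium leak channel) listed with the partners, rose 1.56-fold, the mean going from 8.87 ± 0.15 (SD, n = 3) to 9.51 ± 0.18 (SD, n = 4) (limma adjusted p = 0.0471). Of 23 measured partners of calcium channels and genes of intracellular calcium release, 2 rose, 0 fell and 21 did not pass, with a median of -0.04. Rims1, the active zone protein that tethers presynaptic calcium channels, rose 1.98-fold, the mean going from 8.31 ± 0.12 (SD, n = 3) to 9.30 ± 0.32 (SD, n = 4) (limma adjusted p = 0.0224). Slc8a1, a sodium-calcium exchanger, rose 1.97-fold, the mean going from 7.55 ± 0.18 (SD, n = 3) to 8.53 ± 0.17 (SD, n = 4) (limma adjusted p = 0.0093). On all 5 the null arrays lay above the wild type arrays, and so did the heterozygote. Over both lists 0 partners were called lower by limma, and the count of called partners fell to 1 without wild type 3, to 2 without wild type 2, null 1 or null 2 and to 3 without null 3, and rose to 8 without null 4.

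The number of channel calls varied with single mice, as did calls over all probe sets, of which 2.32% were called in either direction with all 7 arrays. Without wild type 2, wild type 3, null 1 or null 2, limma called 1 of the 87, Cacna2d2 in the first case and Scn3b in the other 3, while 0.813%, 0.648%, 0.888% and 0.797% of all probe sets were called. Without null 3 it called 3 (Scn3b, Cacna2d2 and Cacna1b), without wild type 1 it called 7 and without null 4 it called 9, of which 1, Cacng1, was lower. The shares of all probe sets called were then 1.46%, 4.83% and 4.45%. When the highest Ttr arrays of each group (wild type 1 and null 2) were dropped, 1 was called (Scn3a), and the 6 had differences between 0.59 and 1.11 with adjusted p values from 0.0557 to 0.155. The differences kept their sign in all settings run: over 17 or 18 alternative fits per probe set they ranged from 0.71 to 0.99 for Scn3b, 0.75 to 1.08 for Cacna2d2, 0.55 to 0.88 and 0.54 to 0.88 for Cacna1b, 0.59 to 0.79 for Cacng2 and 0.62 to 1.19 for Scn2a. Scn3b lost its call in 4 of these fits, Cacna2d2 in 6, Cacna1b in 7 and 10, Scn2a in 9 and Cacng2 in 11.

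**Figure D5:**
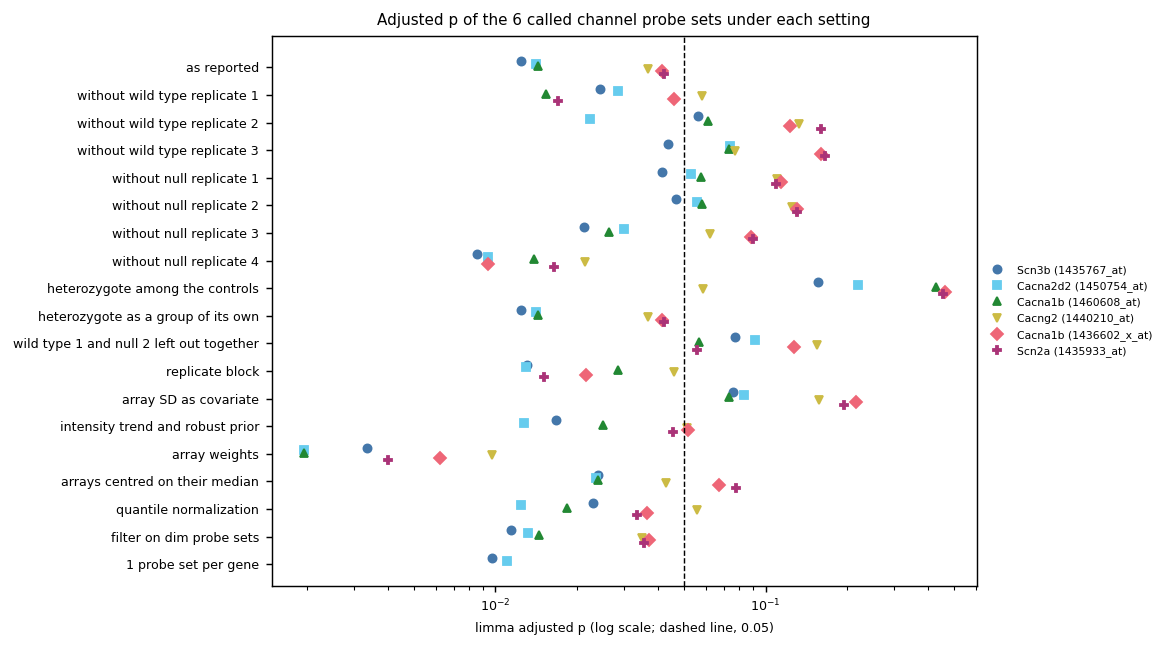
Limma adjusted p (horizontal log axis; dashed line at 0.05) of the 6 called channel probe sets in the fit as reported and under each alternative (rows). Symbols to the right of the line lost their call: all 6 did so with the heterozygote among the controls, with array SD as covariate and without wild type 1 and null 2.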

How the data were processed

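Each deposited value is a log2 expression value of a probe set, computed from Affymetrix arrays by RMA, which the authors ran per the series' design text and the submitters' processing notes. The sources used here give neither the RMA version nor which arrays were normalized together. Probe sets were named from the platform annotation, and all 37 symbols were found in the RefSeq gene table (GRCm38.p6), which served for gene names and neighbours, and promoters came from RefSeq's promoter table.

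Null (4) was set against wild type (3) in limma 3.58.1 under R 4.3.3 (lmFit and eBayes, no covariate) on all 45037 probe sets, with Benjamini-Hochberg adjustment over all of them and a threshold of 0.05. Fold changes are powers of 2 of the log2 difference. The heterozygote stayed out of this fit. A gene's brightest probe set has the highest mean over the 7 arrays. The members and lists were chosen with earlier results of these data known. Genes with values in every array were called ones, in each of the 7 families the gene with the brightest probe set and the gene whose brightest probe set differed most, and other probe sets of called genes with both signs. Further probe sets without overlap are given by group, and other values, such as those of Scn4b, were chosen after their values were seen. The code was tested on simulated data. Same-numbered arrays were not paired (correlations of deviations from group means -0.252, -0.309 and -0.168). With 1 mouse per array, precision is limited by how few arrays there are. Plots were made with matplotlib 3.10.9 (Python 3.11.15).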

Additional observations from a re-analysis of the deposited data

Results flagged for a closer look

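The heterozygote array, which entered no test, read above every wild type array on 5 of the 6 called channel probe sets. Among all probe sets with null arrays wholly above wild type ones, the heterozygote did so on 84.7%. Its values were 8.30 and 8.23 on the Cacna1b probe sets 1460608_at and 1436602_x_at, 7.42 on Cacna2d2, 9.45 on Scn2a and 10.28 on Scn3b. It is 1 mouse, and the difference from wild type was not tested. No null array of the named probe sets stood apart from the other null arrays by Dixon's criterion for 4 samples.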

How the results depend on the processing

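The count of called channel probe sets (6, with 0 lower) was 0 with the heterozygote among the controls or with array SD as covariate. It was 1 without wild type 1 and null 2 (1.05% of all probe sets called). With 1 probe set per gene it was 2 of 37 tested, beside 2.86% of all genes called higher in that fit. With array weights it was 12, 2 of them lower (8.11% of all probe sets called). By a SAM score beyond 2 it was 30, 9 of them lower (23.0% of all). With single arrays left out it ranged from 1 to 9, with 0 to 1 lower. The count of called partner genes (5) was 0 with the heterozygote among the controls, 1 with array SD as covariate, 2 without wild type 1 and null 2, 9 with array weights, 3 with arrays centred on their median, 15 by the SAM score, and 1 to 8 with single arrays left out. With the replicate number as a block (replicate block), which the arrays do not bear out as a pairing, 8 channel probe sets were called. Calls over all probe sets were then 4.24%, against 2.32% in the fit as reported. The added ones were Cacna1b 1439612_at and Scn3a. Of the named probe sets, those near 0 changed sign. Cacna1b 1425812_a_at was 0.077 under array SD as covariate, 0.015 under median centring and between -0.14 and 0.12 with single arrays left out. Cacna2d2 1451955_a_at was 0.0072 under median centring and 0.029 under quantile normalization. Cacng2 1453363_at was 0.040 if the heterozygote joined the controls and 0.12 under array SD as covariate. Scn2a 1445259_at was 0.069 if the heterozygote joined the controls, 0.19 under array SD as covariate, 0.059 under median centring, 0.064 under quantile normalization and between -0.14 and 0.12 with single arrays left out. The cause was not tested. Over the named probe sets, 346 of the alternative values kept direction and side of the threshold, 47 lost a call, 18 gained one and 15 changed sign. The heterozygote as a group of its own gives the same values as the fit without it, since a group of 1 adds no residual. Signals of dim probe sets, read without a detection call, limit what can be said of genes such as Scn4b, Scn7a and Scn9a.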
